A study of Mus musculus with 24 samples.

Results

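The neutrophil granule genes described here are 10 genes whose proteins fill the granules or the cytosol of neutrophils. They were chosen by symbol from a list of names with earlier results of these data known. Counts of their calls beside those of all genes are therefore descriptive. All 10 genes were found among the 54532 genes of the count table, each on 1 row. Their messages were counted by RNA-seq of mouse marrow macrophages, which had been expanded on petri dishes, reseeded at 15000 cells per well and kept either with macrophage colony-stimulating factor (M-CSF) or in osteoclast medium. Osteoclast medium combined 30 ng/mL of M-CSF and 50 ng/mL of RANKL, a TNF-family ligand under which macrophages become bone-resorbing osteoclasts. The sources used here do not give the age of the mice or how much M-CSF the other wells received. The control cells were Rosa26-Runx1tg/+, with a Runx1 transgene at the Rosa26 locus and no Cre. The other cells were LysM-Cre;Rosa26-Runx1tg/+ and are called the Runx1 overexpression cells here, after their label. All groups therefore carried the transgene, and they differed in Cre driven from the lysozyme 2 gene, which macrophages and neutrophils both express. Each genotype was sampled at day 3 and day 5 in each medium, with 3 libraries per group and 24 libraries in all.

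Neutrophils build their granules in a fixed order while they mature in the bone marrow. Promyelocytes make the primary, or azurophil, granules, which carry myeloperoxidase (Mpo) and the serine proteases neutrophil elastase (Elane), proteinase 3 (Prtn3) and cathepsin G (Ctsg). Myelocytes and later stages make the secondary granules, with the iron-binding lactoferrin (Ltf), the antimicrobial cathelicidin (Camp), neutrophilic granule protein (Ngp) and the siderophore-binding lipocalin 2 (Lcn2). S100a8 and S100a9 form calprotectin, a calcium- and metal-binding complex of the neutrophil cytosol that monocytes also make. The primary granule genes are also read in early granulocyte-monocyte progenitors, and lipocalin 2 and the S100 genes are also induced in macrophages. The 10 genes thus fall into 4 primary granule genes and a set of 6 secondary granule and S100 genes.

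The positions in the table match the build GRCm38. Elane (ENSMUSG00000020125, chromosome 10, 79886247 to 79888215) and Prtn3 (ENSMUSG00000057729, chromosome 10, 79874476 to 79883174) are neighbours 3.07 kb apart with no annotated gene lying wholly between them. Mpo lies on chromosome 11 (ENSMUSG00000009350, 87793581 to 87804413) and Ctsg on chromosome 14 (ENSMUSG00000040314, 56099881 to 56102574). Camp (ENSMUSG00000038357, 109847379 to 109849617), Ngp (ENSMUSG00000032484, 110419747 to 110423012) and Ltf (ENSMUSG00000032496, 111019271 to 111042767) lie on chromosome 9 over a stretch that holds many other genes. S100a8 (ENSMUSG00000056054, 90668978 to 90670035) and S100a9 (ENSMUSG00000056071, 90692632 to 90695721) are neighbours on chromosome 3, 22.6 kb apart, and Lcn2 is on chromosome 2 (ENSMUSG00000026822, 32384633 to 32388252). All 10 are annotated as protein coding. The start of the Prtn3 span overlaps Plppr3 on the opposite strand, which had 1310 counts over all libraries, and the sources used here do not say whether counting used strand, so reads of the shared stretch cannot be assigned to either. Mpo overlaps Gm11505 on the opposite strand, which had 0 counts.

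The stretches just before the transcription start are shown for 3 primary granule genes and for 3 of the other 6. These are the longest stretches free of annotated exon among the 10 genes, at 185 bases (Elane) or more, against 157 (S100a8) or fewer. They are from RefSeq's promoter table for GRCm38.p6, which held all 10 genes, run 5′ to 3′ along the gene, and stop before the first annotated exon base. Capitals mark matches to TGTGGT, a core that Runx factors bind, to TTNNGNAA, a core of sites that C/EBP factors bind, and to GAGGAA, an ETS core that the myeloid factor PU.1 binds, on either strand. A match on the other strand is printed as its reverse complement. For Prtn3 the RefSeq start lies inside the span given above, which begins further upstream. The stretches are chr10:79886062-79886246 (plus strand) for Elane, chr10:79879417-79879613 (plus) for Prtn3, chr14:56102575-56102824 (minus) for Ctsg, chr9:111019042-111019270 (plus) for Ltf, chr9:110419558-110419746 (plus) for Ngp and chr3:90695722-90695971 (minus) for S100a9.
Elane upstream: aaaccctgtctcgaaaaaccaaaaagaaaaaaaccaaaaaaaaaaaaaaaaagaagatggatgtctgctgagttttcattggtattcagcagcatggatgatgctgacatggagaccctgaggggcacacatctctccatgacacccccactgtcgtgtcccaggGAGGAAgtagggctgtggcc
Prtn3 upstream: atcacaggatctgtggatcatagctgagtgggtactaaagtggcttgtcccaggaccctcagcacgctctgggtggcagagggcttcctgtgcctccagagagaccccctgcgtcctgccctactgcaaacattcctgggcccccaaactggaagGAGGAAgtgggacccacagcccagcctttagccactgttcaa
Ctsg upstream: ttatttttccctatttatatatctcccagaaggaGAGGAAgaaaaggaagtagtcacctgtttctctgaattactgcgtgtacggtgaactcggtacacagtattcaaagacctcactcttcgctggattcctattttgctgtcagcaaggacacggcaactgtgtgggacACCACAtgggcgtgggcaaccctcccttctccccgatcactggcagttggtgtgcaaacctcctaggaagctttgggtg
Ltf upstream: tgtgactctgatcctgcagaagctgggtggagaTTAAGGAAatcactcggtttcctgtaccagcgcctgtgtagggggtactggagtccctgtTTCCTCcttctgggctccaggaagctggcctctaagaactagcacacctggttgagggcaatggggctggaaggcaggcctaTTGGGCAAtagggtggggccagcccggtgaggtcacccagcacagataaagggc
Ngp upstream: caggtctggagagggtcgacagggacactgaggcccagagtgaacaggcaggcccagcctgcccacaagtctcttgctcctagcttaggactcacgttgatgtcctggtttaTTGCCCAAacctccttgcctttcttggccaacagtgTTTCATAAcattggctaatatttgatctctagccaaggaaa
S100a9 upstream: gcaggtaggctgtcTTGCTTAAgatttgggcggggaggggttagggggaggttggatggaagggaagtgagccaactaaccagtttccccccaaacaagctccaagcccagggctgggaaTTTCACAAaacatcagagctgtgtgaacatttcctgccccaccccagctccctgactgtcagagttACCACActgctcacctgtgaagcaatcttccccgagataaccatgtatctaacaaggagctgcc
In the full 250 bases before the start, GAGGAA matched in all 4 primary granule genes and in 3 of the other 6 (Ltf, Lcn2 and S100a8), and 23.3% of the 32851 promoters of that length held it. TTNNGNAA matched in 0 of the 4 primary granule genes and in 5 of the other 6 (Ltf, Ngp, Lcn2, S100a8 and S100a9), against 36.8% of all promoters, and Ngp held 3 matches, the third of them beyond the printed stretch. Ltf and S100a9 held 2 each, Lcn2 and S100a8 1 each and Camp 0, so the printed genes of this set are those with the most matches. TGTGGT matched in Ctsg and S100a9 only, against 14.0% of all promoters. TGCGGT, a second Runx core, matched in 0 of the 10 genes, against 5.1%. AACNG, a core that Myb binds, matched in all 10 genes and in 74.2% of all promoters, and it is not capitalised. The motifs are short, GAGGAA and TTNNGNAA can overlap each other, and a match describes letters only.

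Library totals ran from 18.98 to 24.27 in 1e6 counts, apart from the Runx1 overexpression library number 3 at day 5 with RANKL, which had 36.52. A single read was worth 0.0286 to 0.0542 CPM, that is counts per 1e6 of the TMM-scaled library total, the unit of the levels below. Runx1 itself, the transgene's product and the check of the genotype labels, did not pass the test between genotypes in any medium or day: its level at day 5 with RANKL was 80.6 ± 15.1 CPM (SD, n = 3) in Runx1 overexpression cells and 68.6 ± 2.56 CPM in control cells. The 4 Runx1 overexpression libraries with number 3 stood apart from all others, with 2576 counts of 4 Y-linked genes against 0 to 2 in each other set of 4 libraries, and 2 to 12 Xist counts against at least 14963. The labels do not give the sex of the mice, so the calls of the 10 genes that are gained or lost without these 4 libraries are named below. All libraries carry the cell type label for osteoclasts, while the 8 osteoclast markers summed to 38.2 to 65.2 CPM in the M-CSF libraries and to 34860 to 57800 CPM with RANKL. The 7 macrophage markers summed to 7586 to 10020 CPM in M-CSF and to 2995 to 4705 CPM with RANKL.

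All 10 genes passed the filter on low counts, as did 15035 genes in all, but their levels spanned a wide range. Per kilobase of transcript and averaged over the 24 libraries, S100a9 stood highest at 55.0 CPM per kb, followed by Ngp at 29.0 and S100a8 at 22.9. Ltf (5.13 CPM per kb), Camp (4.10) and Lcn2 (3.53) came next. The primary granule genes were the lowest, with Elane at 1.79 CPM per kb, Mpo at 1.05, Prtn3 at 0.993 and Ctsg at 0.555. Raw counts per library reached 1577 for Ngp but ran from 7 to 354 for Mpo, 0 to 210 for Elane, 1 to 174 for Prtn3 and 0 to 62 for Ctsg. Ctsg had 0 counts in 3 libraries and Elane in 1, where a count of 0 allows up to 0.156 CPM (3 counts, counting error only). The p-values measure only the spread between these samples, since no label says whether they came from separate animals or cultures.

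**Figure D1:**
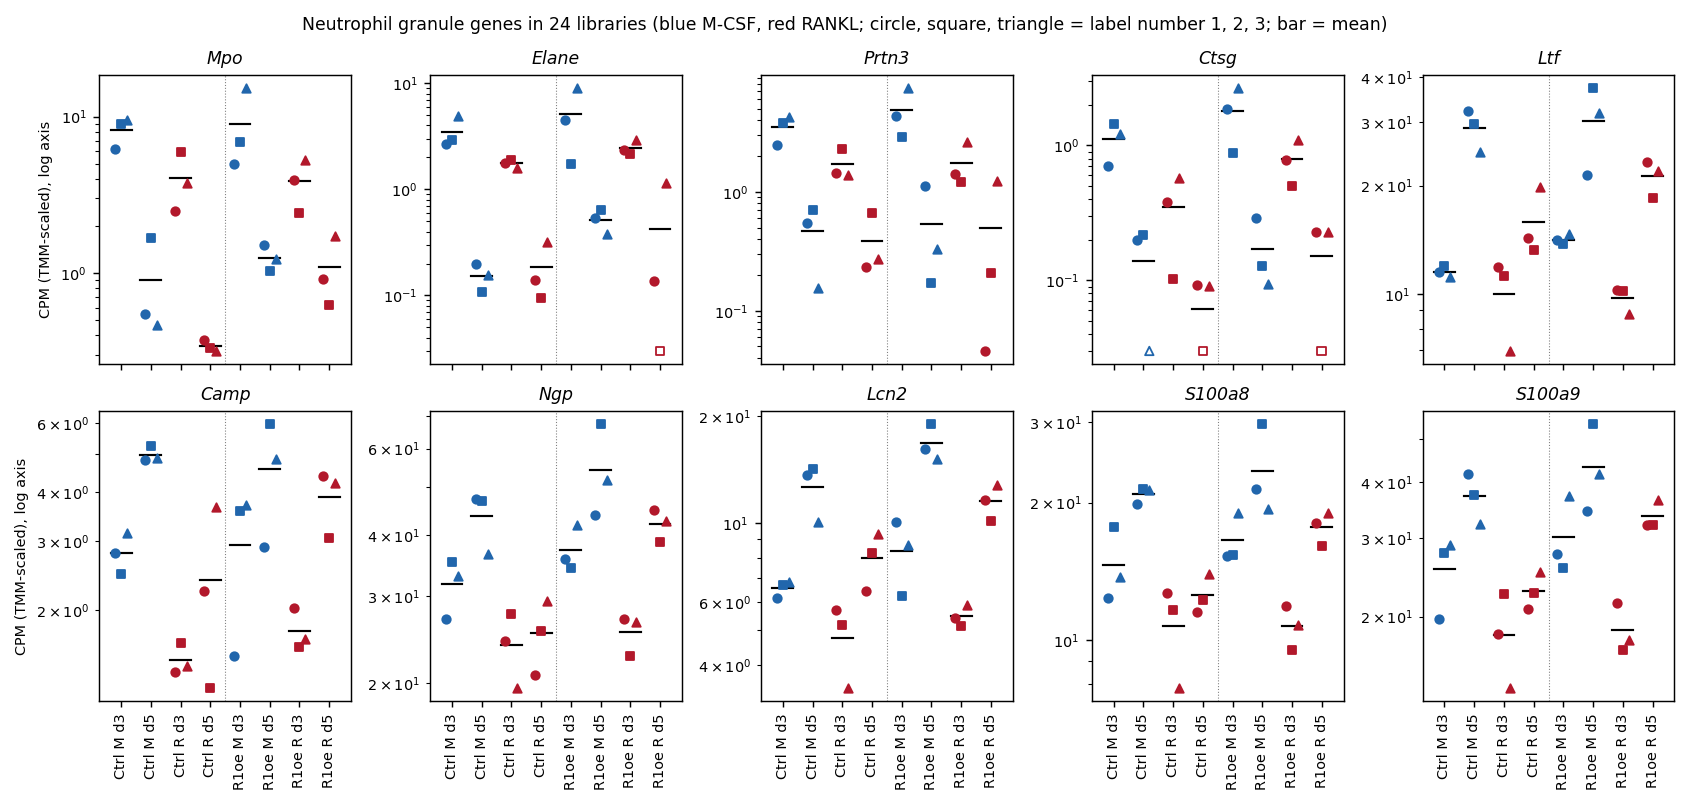
Level of each of the 10 genes in each of the 24 libraries, in CPM on a log axis, by group (Ctrl, control; R1oe, Runx1 overexpression; M, M-CSF; R, RANKL; d3 and d5, days 3 and 5), with open symbols at the bottom for a count of 0. The first 4 panels (Mpo, Elane, Prtn3, Ctsg) step down from day 3 to day 5, and the other 6 panels do not.

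The 4 primary granule genes fell from day 3 to day 5, while the secondary granule and S100 genes rose or did not pass the test, so the list did not move as one with culture time. In control cells in M-CSF, Mpo, Elane, Prtn3 and Ctsg all fell, and 5 of the other 6 genes rose. In control cells with RANKL 3 of 4 fell and 2 of 6 rose. Among Runx1 overexpression cells it was 4 of 4 and 3 of 6 in M-CSF and 3 of 4 and 6 of 6 with RANKL. No primary granule gene rose and no other member fell in any of the 4 comparisons, at a Benjamini-Hochberg adjusted p under 0.05 over all genes tested by edgeR's quasi-likelihood test, from which every adjusted p here comes unless another test is named. Of all genes tested, 12.2% were called higher and 11.5% lower in control cells in M-CSF, 14.1% and 12.7% in control cells with RANKL, 7.17% and 7.08% in Runx1 overexpression cells in M-CSF, and 17.6% and 15.6% in those cells with RANKL. The median log2 fold change of the 4 primary granule genes was -3.08, -2.82, -3.24 and -2.01 in these 4 comparisons in that order, that of the other 6 was 0.69, 0.50, 0.59 and 0.96, and that of all genes lay between -0.02 and 0.02.

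Mpo makes hypochlorous acid from hydrogen peroxide. In control cells in M-CSF it stood at 6.25, 8.95 and 9.47 CPM at day 3 and at 0.549, 1.68 and 0.464 CPM at day 5, with no overlap. Its log2 fold change was -3.20 ± 0.50 (SE, adjusted p = 0.000142), a 9.20-fold fall. With RANKL the control libraries went from 2.49, 5.94 and 3.79 CPM to 0.373, 0.329 and 0.318 CPM. The 3 day 5 values were close to each other and all lay below the lowest day 3 value, and the log2 fold change was -3.55 ± 0.56 (adjusted p = 0.000152). The Runx1 overexpression libraries had 4.95, 6.85 and 15.3 CPM at day 3 in M-CSF, the last in library number 3, and 1.5, 1.02 and 1.23 CPM at day 5 (log2 fold change -2.85 ± 0.48, adjusted p = 0.000401). With RANKL they had 3.92, 2.41 and 5.29 CPM and then 0.917, 0.623 and 1.71 CPM (-1.78 ± 0.48, adjusted p = 0.0072). Mpo kept its call in each of these 4 comparisons under all 12 alternatives run for it.

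Elane, the elastase of primary granules, had the steepest fall of the 10 genes in control cells in M-CSF, from 2.66, 2.89 and 4.92 CPM at day 3 to 0.1995, 0.108 and 0.155 CPM at day 5. Its log2 fold change there was -4.45 ± 0.81 (adjusted p = 0.000664), on 9 reads in the 3 libraries of day 5. In control cells with RANKL it went from 1.77, 1.91 and 1.58 CPM to 0.140, 0.094 and 0.318 CPM (-3.21 ± 0.79, adjusted p = 0.00575). The Runx1 overexpression cells in M-CSF went from 4.55, 1.75 and 9.07 CPM to 0.532, 0.640 and 0.378 CPM (-3.29 ± 0.68, adjusted p = 0.00272). With RANKL the day 3 values of 2.33, 2.16 and 2.92 CPM were followed by 0.138, 0 and 1.14 CPM at day 5. Library number 3 held 40 of the 43 Elane reads of that group, and the fold change was -2.33 ± 0.67 (adjusted p = 0.0112) with it and -4.98 without it. The call of Elane was lost there when only the 2 groups compared were fitted (adjusted p = 0.0774, with a range of 0.000139 to 0.0774 over the alternatives), and it was kept under all alternatives in the other 3 comparisons.

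Prtn3, the protease encoded next to Elane, fell in 3 of the 4 comparisons. Its levels went from 2.47, 3.78 and 4.23 CPM to 0.549, 0.704 and 0.155 CPM in control cells in M-CSF (log2 fold change -2.89 ± 0.73, adjusted p = 0.00773), and from 1.43, 2.27 and 1.39 CPM to 0.233, 0.659 and 0.272 CPM with RANKL (-2.11 ± 0.75, adjusted p = 0.0424). The second of these calls was lost in 5 of 12 alternatives. The Prtn3 level of Runx1 overexpression cells in M-CSF went from 4.39, 2.87 and 7.52 CPM to 1.11, 0.171 and 0.331 CPM (-3.20 ± 0.71, adjusted p = 0.00472). With RANKL it did not pass (-1.67 ± 0.70, adjusted p = 0.0703): the day 5 values were 0.0459, 0.208 and 1.23 CPM, and the third, from library number 3, overlapped the day 3 values of 1.42, 1.21 and 2.62 CPM. Prtn3 passed there in 4 of 12 alternatives: with DESeq2's Wald test, with a replicate block, without the 4 number 3 libraries (-3.37) and without library number 3 of day 5 (-3.78), over a range of adjusted p from 0.00255 to 0.216.

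Ctsg, the chymotrypsin-like member of the granule proteases, was the lowest of the 10 genes and fell in 3 comparisons. It stood at 0.699, 1.45 and 1.21 CPM at day 3 and 0.1995, 0.217 and 0 CPM at day 5 in control cells in M-CSF (-2.97 ± 0.79, adjusted p = 0.0106). The values were 1.85, 0.876 and 2.68 CPM and then 0.290, 0.128 and 0.0945 CPM in Runx1 overexpression cells in M-CSF (-3.37 ± 0.74, adjusted p = 0.00438). With RANKL the Runx1 overexpression libraries went from 0.775, 0.503 and 1.10 CPM to 0.229, 0 and 0.229 CPM (-2.25 ± 0.75, adjusted p = 0.0259), a call lost in 5 of 12 alternatives, without the number 3 libraries among them. In control cells with RANKL, at 2 to 12 reads per library on day 3 and 0 to 2 on day 5, it did not pass (-2.43 ± 0.96, adjusted p = 0.0662).

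Among the secondary granule genes, Ltf and Lcn2 rose from day 3 to day 5 in all 4 comparisons. Ltf stood at 11.5, 11.98 and 11.1 CPM at day 3 and at 32.1, 29.6 and 24.8 CPM at day 5 in control cells in M-CSF, a log2 fold change of 1.32 ± 0.20 (adjusted p = 8.19e-05). Ltf went in Runx1 overexpression cells in M-CSF from 14.1, 13.7 and 14.7 CPM to 21.3, 37.4 and 31.8 CPM (1.09 ± 0.19, adjusted p = 0.000702). With RANKL the rise was 0.66 ± 0.20 in control cells (adjusted p = 0.0183), from 11.9, 11.2 and 6.95 CPM to 14.3, 13.3 and 19.9 CPM. It was 1.12 ± 0.20 in Runx1 overexpression cells (adjusted p = 0.000271), from 10.3, 10.2 and 8.80 CPM to 23.2, 18.5 and 21.9 CPM. In none of the 4 did the Ltf groups overlap, but the call in control cells with RANKL rested on library number 3 of each day, since without either of them it was lost (lowest log2 fold change 0.46).

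Lcn2, which starves bacteria of iron by binding their siderophores, went from 6.15, 6.71 and 6.85 CPM to 13.7, 14.3 and 10.1 CPM in control cells in M-CSF (0.94 ± 0.20, adjusted p = 0.00181). Lcn2 went in Runx1 overexpression cells in M-CSF from 10.1, 6.25 and 8.69 CPM to 16.2, 18.97 and 15.2 CPM (1.01 ± 0.19, adjusted p = 0.00128). With RANKL it rose by 0.74 ± 0.20 in control cells (adjusted p = 0.00951) and by 1.07 ± 0.20 in Runx1 overexpression cells (adjusted p = 0.000367). The first of these 2 calls was lost without library number 3 of day 5 (adjusted p = 0.0528, with a range of 0.00563 to 0.0528 over the alternatives).

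Ngp, a cystatin-related protein of secondary granules and the most abundant of the 10 in CPM, rose in 3 comparisons. Its control libraries in M-CSF held 27.0, 35.2 and 33.1 CPM at day 3 and 47.3, 47.0 and 36.6 CPM at day 5 (0.46 ± 0.16, adjusted p = 0.0462), a call lost in 8 of 12 alternatives, among them the fit without the 4 Runx1 overexpression number 3 libraries. The Runx1 overexpression libraries went from 35.8, 34.2 and 41.9 CPM to 43.9, 67.2 and 51.7 CPM in M-CSF (0.54 ± 0.16, adjusted p = 0.0292), lost in 5 of 12. With RANKL they went from 27.0, 22.6 and 26.6 CPM to 45.0, 38.7 and 42.8 CPM (0.73 ± 0.16, adjusted p = 0.00199), kept in 12 of 12. In control cells with RANKL the groups overlapped, at 24.3, 27.6 and 19.6 CPM and then 20.7, 25.6 and 29.4 CPM, and the fold change was 0.08 ± 0.17 (95% interval -0.26 to 0.43).

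The S100 genes and Camp passed in fewer comparisons than Ltf, Lcn2 and Ngp. S100a8 and S100a9 rose by 0.51 ± 0.18 (adjusted p = 0.0384) and 0.54 ± 0.19 (adjusted p = 0.042) in control cells in M-CSF, each call lost in 6 of 12 alternatives. They rose by 0.72 ± 0.18 (adjusted p = 0.00392) and 0.85 ± 0.19 (adjusted p = 0.00201) in Runx1 overexpression cells with RANKL, where S100a9 went from 21.4, 16.8 and 17.7 CPM to 32.1, 32.2 and 36.6 CPM. Neither passed in Runx1 overexpression cells in M-CSF (0.51 ± 0.17, adjusted p = 0.0542, and 0.52 ± 0.19, adjusted p = 0.0659) or in control cells with RANKL (0.23 ± 0.18 and 0.33 ± 0.19). Without the 4 number 3 libraries both passed in Runx1 overexpression cells in M-CSF, S100a8 at 0.74 (adjusted p = 0.026, with a range of 0.026 to 0.314 over the alternatives) and S100a9 at 0.73 (adjusted p = 0.0405, range 0.0174 to 0.32). Camp passed in Runx1 overexpression cells with RANKL, from 2.02, 1.61 and 1.69 CPM to 4.40, 3.06 and 4.23 CPM (1.13 ± 0.34, adjusted p = 0.0142), a call lost without the number 3 libraries and without library number 2 of day 3. Its log2 fold changes in the other 3 comparisons ran from 0.64 to 0.83 and did not pass.

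**Figure D2:**
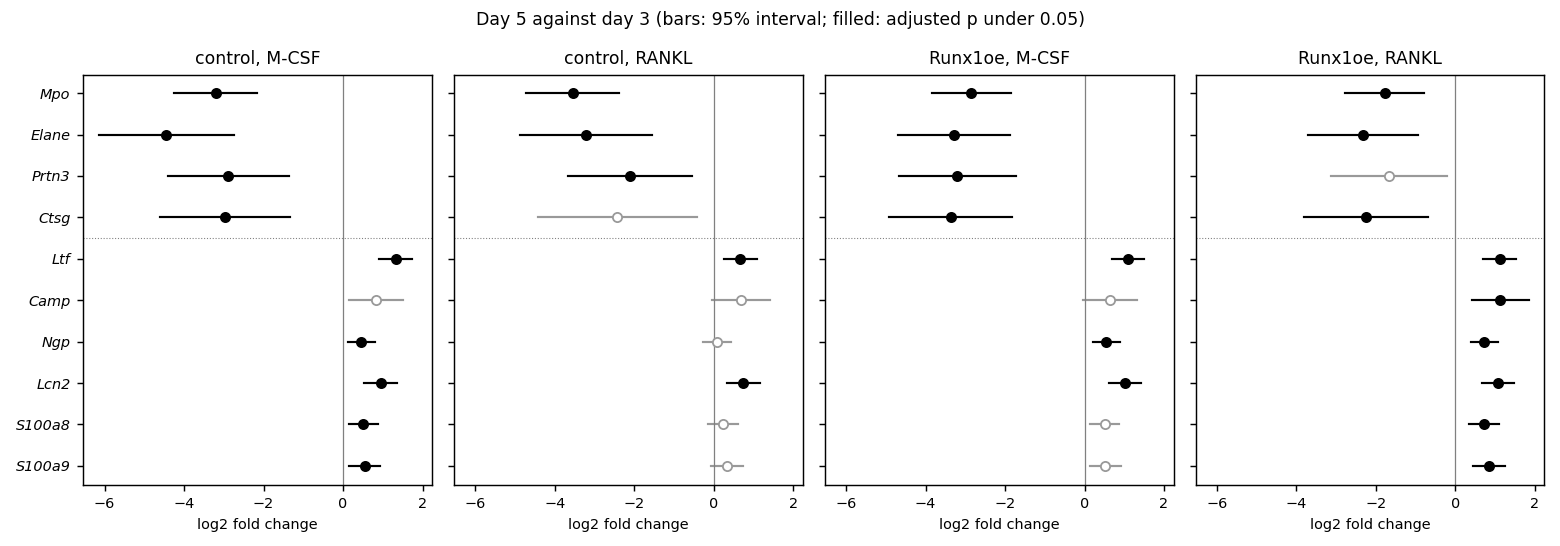
Log2 fold change of day 5 against day 3 for the 10 genes in the 4 combinations of genotype and medium, with 95% intervals and filled points where the adjusted p was under 0.05. Points of the 4 primary granule genes, above the dotted line, lie between -4.45 and -1.67, and those of the other 6 lie between 0.08 and 1.32.

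The balance between the sets within each library changed accordingly. The 4 primary granule genes made up 14.8% ± 1.95 (SD, n = 3) of the reads of all 10 genes in control cells in M-CSF at day 3 and 10.4% ± 2.45 with RANKL, and 15.3% ± 5.60 and 10.9% ± 2.98 in Runx1 overexpression cells. At day 5 the share was 1.08% ± 0.578 and 1.12% ± 0.156 in control cells and 1.51% ± 0.781 and 1.57% ± 1.28 in Runx1 overexpression cells. The lowest day 3 library stood at 7.57% and the highest day 5 library at 3.05%, so the days did not overlap in any group. In bulk RNA, fewer cells of a type and less RNA per cell cannot be told apart, so these shares do not say whether cells were lost or switched genes off.

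**Figure D3:**
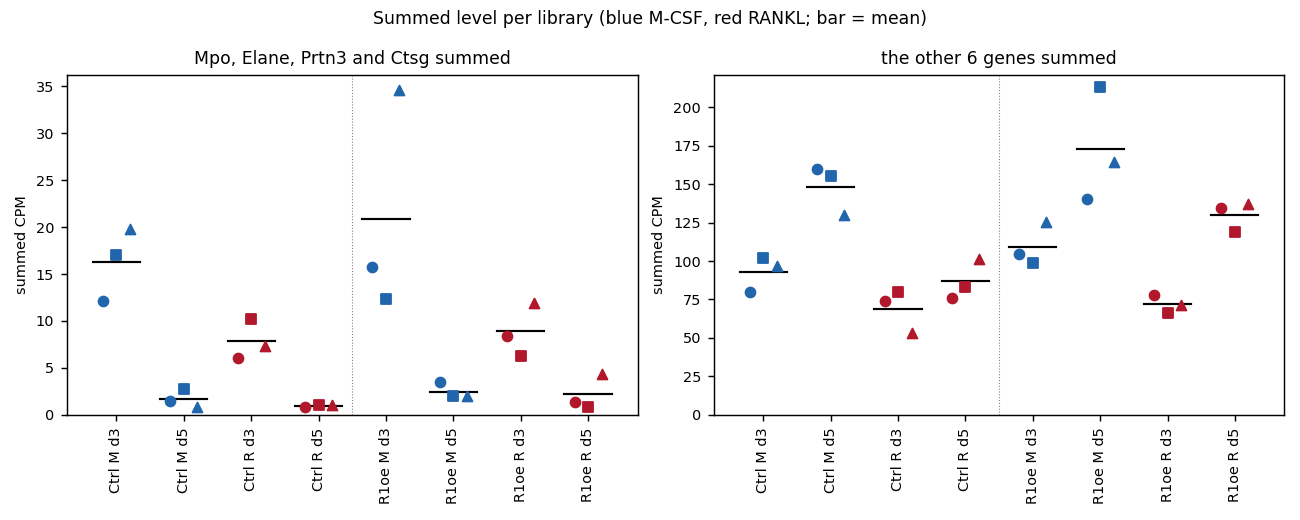
Summed CPM per library of the 4 primary granule genes (left) and of the other 6 genes (right) by group, with bars at the means. On the left every day 5 group mean lies below every day 3 group mean (0.973 to 2.48 against 7.88 to 20.9 CPM), and on the right the day 5 groups have the higher mean in each medium and genotype.

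Across the 24 libraries the 10 genes split the same way. The correlation of log2 CPM between pairs of primary granule genes ran from 0.83 (Prtn3 and Ctsg) to 0.902 (Mpo and Elane). Between pairs of the other 6 it ran from 0.746 (Camp and Lcn2) to 0.962 (Ngp and S100a9). Between the sets it was negative for every pair, from -0.621 (Prtn3 and Ltf) to -0.122 (Ctsg and Ngp). These values describe 24 libraries that share groups, days and media, and they carry no p. The genes outside the 10 with the closest pattern were also found, for each member with a mean of at least 1 CPM, and most lay below the closest fellow member. Among those outside genes, Chil3, a chitinase-like lectin of neutrophils and macrophages, was the closest to Ngp (r = 0.909), Lcn2 (0.905), S100a8 (0.886) and S100a9 (0.911). Ltf was closest to Cdipt (0.918) and Bcl6 (0.904), Camp to Carmil1 (0.868), Mpo to Scd1 (0.892), Elane to Atg9a (0.877) and Prtn3 to Lancl2 (0.858).

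Every one of the 10 genes that passed between media was lower with RANKL than in M-CSF alone, and Elane did not pass in any of the 4 comparisons. In control cells at day 3, 6 of 10 were lower (Mpo, Ctsg, Camp, Ngp, S100a8 and S100a9), and at day 5 all 6 secondary granule and S100 genes were. In Runx1 overexpression cells 7 of 10 were lower at day 3 (Mpo, Prtn3, Ltf, Ngp, Lcn2, S100a8 and S100a9) and 2 of 10 at day 5 (Ltf and Lcn2). Of all genes tested, 29.7%, 23.1%, 30.1% and 24.9% were called lower in these 4 comparisons, in that order, and 29.5%, 26.4%, 29.1% and 27.5% higher, so a lower call was common under RANKL, and the 2 of 10 at day 5 in Runx1 overexpression cells was no higher than that share. The median log2 fold change of the 10 genes was -0.70, -0.76, -0.71 and -0.30, that of all genes -0.03, 0.03, -0.02 and 0.03. These comparisons use the same libraries as the day comparisons.

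The calls were steadiest in control cells at day 5. Ltf stood at 32.1, 29.6 and 24.8 CPM in M-CSF and 14.3, 13.3 and 19.9 CPM with RANKL, a log2 fold change of -0.87 ± 0.19 (adjusted p = 0.000853). Ngp was lower by 0.79 on the log2 scale (-0.79 ± 0.16, adjusted p = 0.000404) and its groups did not overlap. Camp was at 4.84, 5.26 and 4.90 CPM in M-CSF and 2.24, 1.27 and 3.68 CPM with RANKL (-1.06 ± 0.33, adjusted p = 0.0119), a call lost without RANKL library number 2 (adjusted p = 0.0743, the range being 0.00172 to 0.0743). Lcn2, S100a8 and S100a9 had log2 fold changes of -0.66, -0.73 and -0.70, and no alternative ended any of these 3 calls or those of Ltf and Ngp. The primary granule genes were low in both media at that day and did not pass, Mpo coming nearest (-1.37 ± 0.63, adjusted p = 0.076). Mpo passed in 6 of 12 alternatives, the fit without the 4 number 3 libraries among them, with adjusted p from 0.0295 to 0.501 over the alternatives.

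At day 3 the calls of control cells were less certain than at day 5. In control cells the log2 fold changes of the 6 called genes ran from -1.64 (Ctsg) to -0.42 (Ngp), with adjusted p between 0.0299 and 0.0498, and the count fell to 2 with DESeq2's size factors. Elane was not among them (-0.99, adjusted p = 0.165), but passed without the 4 Runx1 overexpression number 3 libraries (adjusted p = 0.0312, range 0.0281 to 0.419), which enter only the shared fit and not this comparison. In Runx1 overexpression cells S100a9 (-0.69 ± 0.19, adjusted p = 0.00367), S100a8 (-0.62 ± 0.18, adjusted p = 0.00484) and Ngp (-0.55 ± 0.16, adjusted p = 0.00633) had the smallest p. Without the 4 number 3 libraries the calls of Mpo, Ltf, Ngp and S100a9 were lost there (adjusted p = 0.0929, 0.157, 0.0527 and 0.0856), and 3 were kept, Prtn3, Lcn2 and S100a8. Over all alternatives the highest adjusted p of the lost calls was 0.235 for Mpo, 0.157 for Ltf, 0.0527 for Ngp and 0.0856 for S100a9. Mpo was at 4.95, 6.85 and 15.3 CPM in M-CSF and 3.92, 2.41 and 5.29 CPM with RANKL in these cells (-1.21 ± 0.44, adjusted p = 0.0211), so that the groups overlapped. At day 5 in these cells Ltf was lower by 0.51 ± 0.19 (adjusted p = 0.0313) and Lcn2 by 0.54 ± 0.19 (adjusted p = 0.0211). The call of Ltf was lost in 7 of 12 alternatives and that of Lcn2 in 2. Both were lost without library number 2 of either medium. That of Ltf was also lost without the low-count filter and with only the groups compared. It was lost as well without the 4 number 3 libraries and without library number 3 of either medium. Without the 4 number 3 libraries Elane was lower with RANKL at day 5 (adjusted p = 0.00784, the range over the alternatives being 0.00784 to 1), while with them its log2 fold change was -0.09 ± 0.75. S100a8 also passed without them (-0.60, adjusted p = 0.0281, range 0.0239 to 0.362), against -0.41 and an adjusted p of 0.0543 with them.

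**Figure D4:**
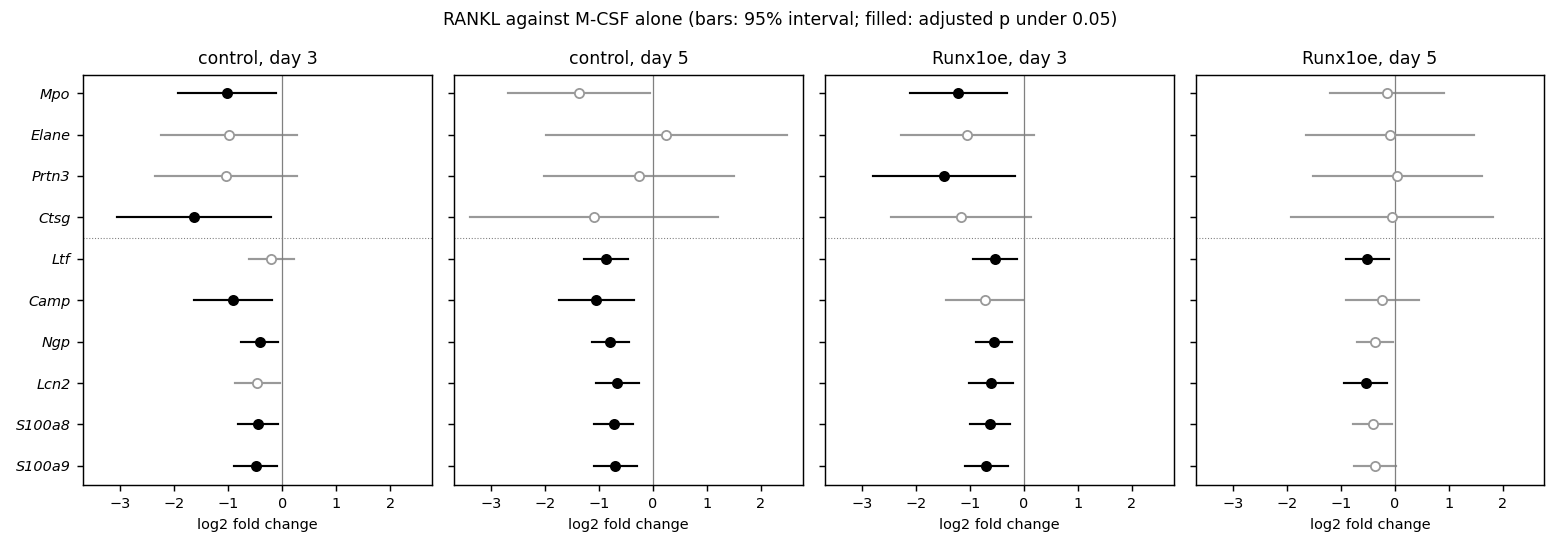
Log2 fold change of RANKL against M-CSF alone for the 10 genes in each genotype and day, with 95% intervals and filled points where the adjusted p was under 0.05. Filled points lie between -1.64 and -0.42, and Elane, Prtn3 and Ctsg at day 5 have the widest intervals.

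The labelled genotypes were compared, and none of the 10 passed in any of the 4 comparisons (0% of all genes tested in each). Runx1 itself did not pass between them either, so these are comparisons of labels, and the effect of a raised Runx1 level was not tested. At an unadjusted p under 0.05 there were 0 and 1 of the 10 genes in M-CSF at days 3 and 5, and 0 and 7 with RANKL, beside 530, 948, 258 and 457 of the 15035 genes. DESeq2's Wald test called 3, 18, 1 and 5 genes, of which 1 was a member. That gene was Ngp at day 5 with RANKL, where the control libraries held 20.7, 25.6 and 29.4 CPM and the Runx1 overexpression libraries 45.0, 38.7 and 42.8 CPM, with no overlap. Its log2 fold change was 0.74 ± 0.16 (95% interval 0.40 to 1.08), with an adjusted p of 0.922 by edgeR and 0.049 by DESeq2. Over its 12 alternatives the adjusted p ran from 0.049 to 1. Without the 4 number 3 libraries 0 of the 10 genes were called in any of the 4 comparisons, beside 34, 112, 6 and 40 of all genes. At an unadjusted p under 0.05 there were then 0, 2, 0 and 3 of the 10, beside 1100, 1538, 690 and 1101 of all genes.

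All 10 genes had a positive log2 fold change between genotypes at day 5 with RANKL, from 0.42 (Ltf) to 1.71 (Mpo), and 0 passed. The median of all genes was -0.00163, and the share of all genes with a positive change was not counted. Genes within each set varied together across the libraries, with correlations from 0.746 to 0.962. Their shared sign is therefore not 10 separate results. Mpo stood at 0.373, 0.329 and 0.318 CPM in control cells and at 0.917, 0.623 and 1.71 CPM in Runx1 overexpression cells (1.71 ± 0.60, adjusted p = 1). The log2 fold changes of S100a9 (0.56 ± 0.19), S100a8 (0.50 ± 0.18) and Lcn2 (0.53 ± 0.19) were smaller, and none of these genes passed. Elane and Prtn3 changed sign without library number 3 of the Runx1 overexpression cells, from 1.37 to -1.29 and from 0.50 to -1.61, and neither passed either way. In M-CSF at day 5 Lcn2 stood at 13.7, 14.3 and 10.1 CPM in control cells and at 16.2, 18.97 and 15.2 CPM in Runx1 overexpression cells (0.41 ± 0.19, adjusted p = 0.781).

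**Figure D5:**
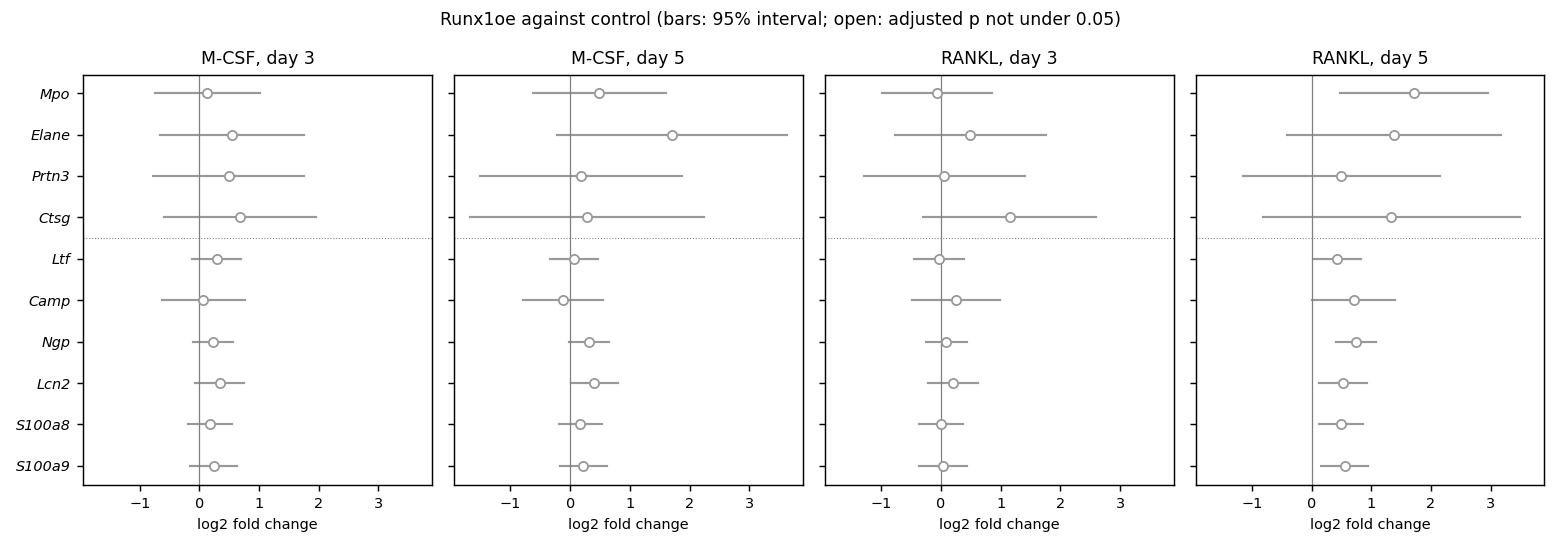
Log2 fold change of Runx1 overexpression against control for the 10 genes in each medium and day, with 95% intervals. All points are open because no adjusted p was under 0.05. At day 5 with RANKL the points lie between 0.42 and 1.71, and the median of all genes was -0.00163.

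Whether the changes differed between settings was tested directly, and 0 of the 10 genes passed in any of the 6 tests. The difference between genotypes of the change with time called 0% of all genes in each medium. At an unadjusted p under 0.05 it held 0 of the 10 genes in M-CSF and 2 with RANKL, beside 338 and 225 of the 15035 genes. The 2 were Ngp (0.65, 95% interval 0.17 to 1.13) and Mpo (1.77, 0.22 to 3.33). DESeq2's Wald test called 0 members in either medium. The difference between media of the change with time called 14% of all genes in control cells and 15.2% in Runx1 overexpression cells. It held 1 and 0 of the 10 at an unadjusted p under 0.05, beside 3985 and 4224 of the 15035 genes. The one was Ltf, which rose less with RANKL than in M-CSF in control cells by a log2 difference of -0.66 (95% interval -1.24 to -0.08, adjusted p = 0.127). The difference between genotypes of the RANKL response called 0% at each day. At an unadjusted p under 0.05 it held 0 of the 10 at days 3 and 5, beside 242 and 481 of the 15035 genes. Intervals were wide for the primary granule genes, as for Elane's genotype difference of the change with time under RANKL (-1.31 to 3.06), so a difference of several fold in either direction lay within them.

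Other genes of the granulocyte programme gave calls in both directions. Of all genes tested, 29.5% were called higher with RANKL and 29.7% lower in control cells at day 3, and 26.4% and 23.1% at day 5. In Runx1 overexpression cells the shares were 29.1% and 30.1% at day 3 and 27.5% and 24.9% at day 5. Of the 14 tested granule and secreted genes beside the 10, 1 was higher with RANKL and 7 lower in control cells at day 3, 1 and 6 at day 5, and 1 and 9 and then 1 and 6 in Runx1 overexpression cells at those days. Lyz2, the lysozyme that macrophages and neutrophils both store, had log2 fold changes of -2.77 (adjusted p = 1.95e-07) and -2.16 (adjusted p = 5.4e-06) at days 3 and 5 in control cells. Of 11 neutrophil surface genes, 1 was higher and 6 lower, 1 and 5, 2 and 6, and 1 and 5 in the same order. Itgam, the CD11b integrin of myeloid cells, was lower in control cells at day 3 (-2.02, adjusted p = 1.45e-10), as was Csf3r, the receptor for granulocyte colony-stimulating factor (-3.72, adjusted p = 7.01e-06). Of 8 genes for protease activation, storage and inhibition, 3 were higher and 4 lower, 2 and 2, 2 and 4, and 2 and 3, so that calls were balanced in control cells at day 5. Ctsc, the dipeptidyl peptidase that activates the granule proteases, was lower in control cells at day 3 (-2.26, adjusted p = 3.64e-09). Of 12 granulocyte transcription factors, 2 were higher and 6 lower, 4 and 4, 3 and 6, and 3 and 4. Among them Cebpa, which drives the granulocyte-monocyte fate, was lower in control cells at day 3 (-2.71, adjusted p = 2.42e-07), as was Irf8, which drives the monocyte fate (-3.10, adjusted p = 3.95e-08). All genes named in this paragraph were lower calls, while each of their lists also held genes called higher. The 7 macrophage markers gave 1 higher and 5 lower calls, 0 and 6, 1 and 5, and 0 and 6.

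Markers of neutrophils other than the 10 genes were mixed. Ly6g, the surface protein that defines mouse neutrophils, had 0 to 5 reads per library. Csf3r averaged 41.7 ± 29.1 CPM in control cells in M-CSF at day 3 and 19.6 ± 4.25 at day 5, and 3.09 ± 2.68 and 1.86 ± 0.398 with RANKL. From day 3 to day 5, 12.2% of all genes tested rose and 11.5% fell in control cells in M-CSF, and 14.1% and 12.7% with RANKL. In Runx1 overexpression cells the shares were 7.17% and 7.08% in M-CSF and 17.6% and 15.6% with RANKL. The 19 other granule and secreted genes, 14 of them tested, gave 1 higher and 1 lower call from day 3 to day 5 in control cells in M-CSF, 0 and 2 with RANKL, and 2 and 1 and then 3 and 0 in Runx1 overexpression cells, with medians of 0.09, 0.31, 0.19 and 0.63. Mmp8, the neutrophil collagenase, fell in control cells in M-CSF (log2 fold change -1.42, adjusted p = 0.00267) and rose in Runx1 overexpression cells with RANKL (0.86, adjusted p = 0.0428), as did Chil3 there (0.87, adjusted p = 0.00105). Fcnb, a ficolin of early neutrophil stages, fell in control cells with RANKL (-2.95, adjusted p = 0.0025). Of the 15 neutrophil surface and maturation genes, 11 of them tested, 0 rose and 1 fell, 1 and 0, 2 and 0, and 2 and 0 in the same 4 comparisons, with Mmp25 falling in control cells in M-CSF (-2.72, adjusted p = 0.0162) and Cxcr2 rising in Runx1 overexpression cells in M-CSF (2.26, adjusted p = 0.012).

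Among 9 markers of early progenitors 8 were tested, and 2, 1, 1 and 1 fell with time in control cells in M-CSF, control cells with RANKL, and Runx1 overexpression cells in the same media. With 11.5%, 12.7%, 7.08% and 15.6% of all genes called lower, a single gene of 8 is near that share. The pair in control cells in M-CSF were Cd34 (log2 fold change -2.66, adjusted p = 0.00268) and Ms4a3, a gene of granulocyte-monocyte progenitors (-2.92, adjusted p = 0.0221). Cd34 fell in Runx1 overexpression cells in M-CSF (-2.05, adjusted p = 0.00846), and Kit, the stem cell factor receptor, fell with RANKL in control cells (-1.65, adjusted p = 0.0181) and in Runx1 overexpression cells (-1.86, adjusted p = 0.00646), where Cd48 rose (0.45, adjusted p = 0.0335). The summed level of the 9 genes ran from 128 to 186 CPM at day 3 and from 123 to 137 CPM at day 5 in control cells in M-CSF, from 37.2 to 48.8 and from 48.3 to 50.1 CPM with RANKL, and over similar ranges in Runx1 overexpression cells, and the part of progenitors in the fall of the primary granule genes was not tested. Among other cell types, the 9 eosinophil, mast cell and basophil markers summed to at most 1.47 CPM and the 7 erythroid markers to at most 0.973 CPM in any library, with Hba-a2, Hbb-bt, Cma1, Tpsb2 and Fcer1a at 0 in all. The 7 lymphoid markers summed to at most 84.3 CPM, with Cd3e at 0 in all, and their sum was nearly all Il7r. The 7 monocyte markers summed to 185 to 348 CPM in M-CSF and to 25.8 to 79.3 CPM with RANKL.

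Genes that act on the granule proteins were also read. Ctsc did not pass between days in any comparison, while Srgn, the proteoglycan that packs them, fell in Runx1 overexpression cells in M-CSF (-0.81, adjusted p = 0.0054) and rose with RANKL in control cells (0.90, adjusted p = 0.0015) and in Runx1 overexpression cells (0.75, adjusted p = 0.00469). Of 8 tested genes for activation, storage and inhibition, 2 rose and 0 fell in control cells in M-CSF, 3 and 0 with RANKL, and 0 and 2 and then 3 and 0 in Runx1 overexpression cells. Between days, 7.08% to 17.6% of all genes tested were called in a given direction. Among 12 granulocyte transcription factors, 2 rose and 0 fell in control cells in M-CSF and 0 changed in Runx1 overexpression cells in M-CSF. With RANKL 3 rose and 1 fell in each genotype, with Cebpb up by 1.11 (adjusted p = 0.000147) in control cells and by 1.07 (adjusted p = 0.000139) in Runx1 overexpression cells, and Spi1, which encodes PU.1, falling (-0.22, adjusted p = 0.0478, and -0.26, adjusted p = 0.0168). Cebpe, the factor that drives secondary granule genes, was at 1.06 ± 0.470 CPM in control cells in M-CSF at day 3 and 0.688 ± 0.144 at day 5 and did not pass between days.

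Receptors for the secreted proteins gave 0 rises and 3 falls among 9 tested genes in control cells in M-CSF, 1 and 1 with RANKL, and 0 and 2 and then 1 and 1 in Runx1 overexpression cells. A single call among 9 genes is near the share of all genes tested, which was 7.08% to 17.6% in a given direction. Cd33, a sialic acid-binding receptor that can bind the S100 pair, fell in all 4, from a log2 fold change of -2.61 (adjusted p = 5.43e-07) in control cells in M-CSF to -1.37 (adjusted p = 0.00114) in Runx1 overexpression cells with RANKL. Inflammatory and acute phase genes, which can be induced together with Lcn2 and the S100 pair in macrophages, gave 3 rises and 1 fall among 7 tested in control cells in M-CSF, 3 and 0 with RANKL, and 1 and 1 and then 3 and 0 in Runx1 overexpression cells. Ptgs2, the inducible cyclooxygenase, rose in all 4 (4.38, adjusted p = 0.00303, in control cells in M-CSF and 4.11, adjusted p = 0.000221, in Runx1 overexpression cells with RANKL). Saa3, an acute phase protein of macrophages, fell in M-CSF in control cells (-1.91, adjusted p = 0.0205) and in Runx1 overexpression cells (-2.81, adjusted p = 0.0018).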

How the data were processed

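The deposited table gives whole-number read counts per gene, made by the authors, for 24 libraries and 54532 genes. STAR, DESeq2 and the build GRCm39 are named in the submitters' processing notes. Versions, counting settings and strand are not known from the sources used here. Of 54409 identifiers found in GENCODE M21 (GRCm38), 98.3% had the same position, so positions are given as GRCm38. Columns were matched to libraries by title, and 0 stayed unmatched.

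Counts were tested with edgeR 4.0.16 in R 4.3.3 (filterByExpr, TMM, robust quasi-likelihood fit on all 24 libraries with a coefficient per group), and calls were made at a Benjamini-Hochberg adjusted p under 0.05 over 15035 genes (27.6%). The fit was tested on simulated data. CPM uses the TMM-scaled library size, and correlations use log2 CPM with a prior count of 2. Standard errors were derived from each fold change and its F statistic, with 95% intervals. No library pair looked like a duplicate. Same-numbered libraries were taken as pairs where all 3 correlations of their deviations from the group means were over 0.1, which held only for Runx1 overexpression cells at day 5 in the 2 media (0.21, 0.166 and 0.369). The members and lists were chosen with earlier results of these data known. Named genes are the 10 members, up to 3 genes per other list with the smallest p among those called in a comparison, and the 3 nearest genes by correlation; Ly6g, Csf3r, Ctsc, Cebpe and the markers listed at 0 were added after their values were seen. Alternatives were DESeq2 1.42.0 (size factors, Wald test), no filter, only the groups compared, each library left out, the 4 Runx1 overexpression number 3 libraries left out, a replicate block and unscaled CPM.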

Additional observations from a re-analysis of the deposited data

How the results depend on the processing

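Each count of called members was recomputed under 6 alternatives and with each library left out. RANKL against M-CSF in control cells at day 3 went from 6 to 2 with DESeq2's size factors, 3 with its Wald test and 2 without the low-count filter, and ran from 1 to 5 with 1 library left out. All genes called lower there were 4186 of 15035, 4281 of 15026 and 3974 of 29368, in that order. In Runx1 overexpression cells the count for RANKL against M-CSF went from 7 to 3 without the number 3 libraries at day 3 (4 to 8 with 1 left out), beside 4131 of 15035 genes called lower. At day 5 the count went from 2 to 1 without the filter and to 1 with only the groups compared (0 to 4), beside 3068 of 29368 and 3692 of 15035 genes called lower. For day 5 against day 3 in control cells with RANKL the count of 5 ran from 2 (without RANKL day 5 number 3) to 6. For genotype at day 5 with RANKL the Wald test gave 1, beside 5 of all genes. With edgeR's test the count there stayed at 0 with 1 library left out, and the Wald test was not run that way. The medium difference of the change with time in control cells ran from 0 to 1. The cause was not tested in any of these.

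For the 8 day and RANKL comparisons and genotype at day 5 with RANKL, with 12 alternatives per gene, 915 values kept their direction and call, 108 lost a call, 34 gained one, and 23 changed sign, all of them uncalled before and after. For genotype at day 5 with RANKL, Elane and Prtn3 went to -1.27 and -1.60 without the 4 number 3 libraries, and over left-out libraries they ran from -1.29 to 2.00 and from -1.61 to 1.10. For RANKL at day 5 in Runx1 overexpression cells, Prtn3 went to -0.034 with the Wald test, -0.22 with the replicate block and -2.32 without the number 3 libraries, and Ctsg to 0.00091 without the filter. With 1 library left out, the ranges there were -0.68 to 0.11 (Mpo), -2.74 to 0.39 (Elane), -2.06 to 1.13 (Prtn3), -0.48 to 0.53 (Ctsg) and -0.47 to 0.0079 (Camp). In control cells at day 5 they were -0.39 to 0.55 for Elane and -0.87 to 0.096 for Prtn3, and for Ngp with time in control cells with RANKL -0.043 to 0.21.

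Libraries of 1 genotype and number correlated over 0.1 in 15 of 36 pairs (median 0.079), and 11 of 12 in each genotype correlated best with their own number, a hint from the data that numbers tie libraries together. Xist counts also set the 4 Runx1 overexpression number 3 libraries apart as a set, at 2 to 12 against at least 14963 in all others. The main fit did not use the numbers. All 3 pairs of a comparison were over 0.1 for RANKL in Runx1 overexpression cells at day 5, where the replicate block left the count of called members at 2 and changed no member's call. In the other comparisons at least 1 pair was not, and the replicate block moved no count by over 1.5 times. It ended the call of S100a8 in control cells at day 3 (adjusted p = 0.0531) and gave calls to Mpo in control cells at day 5 (adjusted p = 0.0295) and to Prtn3 with time in Runx1 overexpression cells with RANKL (adjusted p = 0.0222). Without the number 3 libraries the genotype comparisons called 34, 112, 6 and 40 genes in place of 0. Depth limits the primary granule genes most: at day 5 a library held 0 to 40 reads of Elane, 1 to 43 of Prtn3 and 0 to 8 of Ctsg.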
